A study of Mus musculus with 14 samples.

Results

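The FOXO transcription factors (Foxo1, Foxo3, Foxo4 and Foxo6), the thioredoxin inhibitor Txnip, the sestrins (Sesn1, Sesn2 and Sesn3) and cyclin G2 (Ccng2) were described across mouse dentate gyrus cells sorted for reactive oxygen species (ROS). The genes were chosen by symbol as FOXO factors and genes tied to FOXO activity, stem cell quiescence and redox control, and 8 of the 9 are among the 15119 genes listed. The level of Sesn2 was not analysed here. The cells came from untreated adult B6.Cg-Tg(Nes-EGFP)1Yamm mice, in which the Nestin gene's regulatory elements drive green fluorescent protein (GFP). All cells were sorted as GFP-positive and then by dihydroethidium, a dye that becomes fluorescent when oxidised, into the classes ROS+++ (4 libraries), ROS++ (5 libraries) and ROS+ (5 libraries). Nestin is also made by vascular mural cells, so a Nestin reporter does not mark neural precursors alone.

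FOXO proteins are forkhead transcription factors that insulin and growth factor signalling holds in the cytoplasm through phosphorylation by AKT. When that signal is low, or under oxidative stress, they enter the nucleus and activate genes of cell cycle arrest, antioxidant defence and autophagy. In the adult hippocampus, FOXO factors are known for keeping neural stem cells quiescent and for preserving their number over life. Txnip, the sestrins and Ccng2 have all been described as FOXO targets, Txnip also as a gene that responds to glucose.

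Totals over the listed genes were 12704227 to 20998589 reads (ROS+++), 18325361 to 23454022 reads (ROS++) and 20832009 to 25313902 reads (ROS+). Levels are CPM, a gene's reads scaled to the total of its library, and 3 reads, the upper limit that a count of 0 allows, correspond to 0.119 to 0.236 CPM. Such limits cover counting error only. Differences are on the log2(CPM + 1) scale, which understates the change of low genes, and come with the moderated standard error (SE) and adjusted p of limma. The adjustment ran over the 15102 genes tested, and a gene was called at an adjusted p under 0.05. The labels do not say that the libraries came from separate animals, so the p-values measure the spread between libraries, which may be technical.

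Markers of other cells differed widely between the classes. The summed level of 10 mural cell markers was 52252 to 60893 CPM in ROS+++ libraries, 7725 to 23966 CPM in ROS++ libraries and 17.97 to 511.3 CPM in ROS+ libraries. All 10, like all 10 microglia and macrophage markers, were called higher both in ROS+++ and in ROS++ than in ROS+. The 10 markers of neuronal commitment summed to 35.62 to 168.6 CPM in ROS+++, against 963.6 to 2342 in ROS++ and 10939 to 16324 in ROS+, and Neurod6 had no reads in at least 1 ROS+++ and 1 ROS++ library. The 10 microglia and macrophage markers summed to 623.3 to 2440 CPM in ROS+++, against 868.3 to 2011 in ROS++ and 1.501 to 11.81 in ROS+, where Ptprc, Cx3cr1, Aif1, Tyrobp and C1qa had no reads in at least 1 library. The 10 markers of radial glia-like stem cells, the quiescent stem cells of the dentate gyrus, summed to 2421 to 5771 CPM in ROS+++, against 5587 to 7579 in ROS++ and 1036 to 1598 in ROS+. The 12 immediate early genes, which tissue dissociation can induce, summed to 11208 to 15613 CPM in ROS+++, against 1696 to 3894 in ROS++ and 640.4 to 955.2 in ROS+. The part of these cells and genes in the differences below was not tested. In RNA from sorted populations, fewer cells of a type and less RNA per cell cannot be told apart.

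Txnip and Foxo1 were higher, and Foxo3 and Foxo6 lower, in both ROS+++ and ROS++ than in ROS+, except that Foxo3 in ROS+++ was not called under the 3 other scalings between libraries that were tried. Sesn1 had its highest mean in ROS+++ and its lowest in ROS++. In ROS+++ minus ROS+, 4 of the 8 genes were called, 2 higher and 2 lower, against 59.2% of all tested genes, 19.2% called higher and 40.0% called lower. For ROS++ minus ROS+, 5 of the 8 were called, 2 higher and 3 lower, against 29.6% of all genes, 16.4% higher and 13.2% lower. For ROS+++ minus ROS++, Sesn1 was the 1 gene of the 8 called, against 39.1% of all genes, 9.89% higher and 29.2% lower. Libraries of ROS+++ and ROS+ did not overlap for 3 genes that were higher and 2 that were lower, against 50.0% of all genes, 16.8% higher and 33.2% lower. Those of ROS++ and ROS+ did not overlap for 2 higher and 1 lower, against 23.0%, 12.1% and 10.9% of all genes. Those of ROS+++ and ROS++ did not overlap for 1 higher gene, against 27.0% of all genes, 7.48% higher and 19.5% lower. The F-test for any difference among the 3 classes called 5 of the 8, against 61.5% of all genes. Foxo6 was tested through its ROS+ libraries alone, since it had at least 1 CPM in 5 ROS+ libraries, 1 ROS++ library and no ROS+++ library, so it had to differ, and these counts are no evidence of their own.

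**Figure D1:**
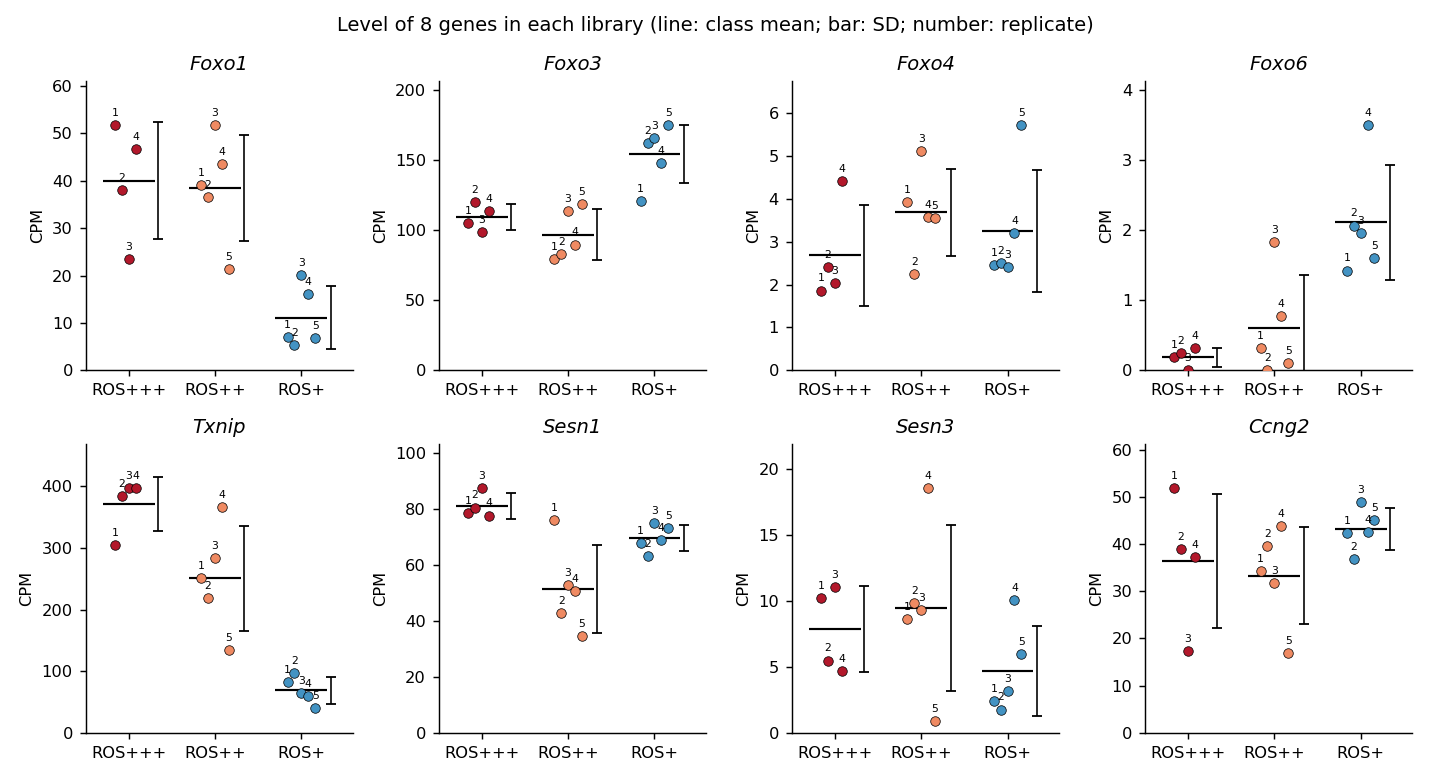
Level in CPM (vertical axes, linear, from 0) of the 8 genes in each of the 14 libraries, with ROS+++ on the left, ROS++ in the middle and ROS+ on the right. Points are libraries, numbers are replicates, lines are class means and bars are SD, with bars that reach below 0 cut there. Txnip and Foxo1 lie higher in every ROS+++ and ROS++ library than in any ROS+ library, and Foxo3 lies lower.

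**Figure D2:**
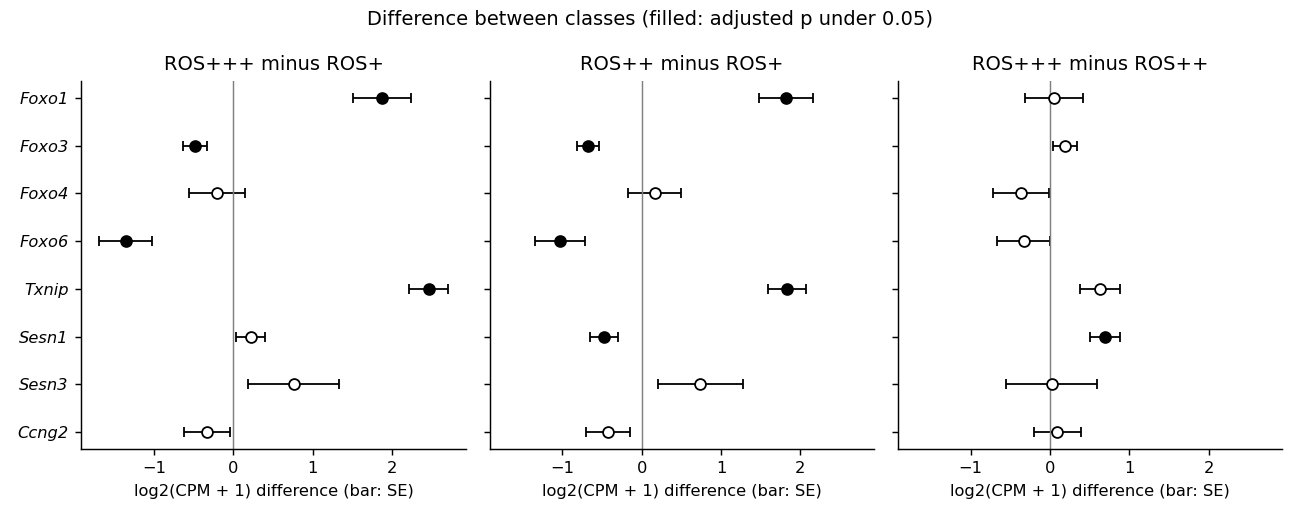
Difference in log2(CPM + 1) (horizontal axes) for the 8 genes in the 3 comparisons, with the SE as a bar and filled points for an adjusted p under 0.05. Txnip and Foxo1 lie to the right and Foxo3 and Foxo6 to the left in both comparisons with ROS+. In ROS+++ minus ROS++ only the point of Sesn1 is filled.

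Foxo1, the FOXO factor best known for its control by insulin, lies on chromosome 3 at chr3:52268336-52353221 of mm10. It had 51.7, 38.0, 23.5 and 46.7 CPM in ROS+++ libraries, 39.1, 36.65, 51.8, 43.5 and 21.4 CPM in ROS++ libraries, and 6.95, 5.42, 20.2, 16.1 and 6.85 CPM in ROS+ libraries. Every ROS+++ and ROS++ library lay above every ROS+ library, while ROS+++ and ROS++ overlapped. The nearest libraries were close, with 21.4 CPM in ROS++ replicate 5 and 20.2 CPM in ROS+ replicate 3. The class means were 40.0 ± 12.4, 38.5 ± 11.1 and 11.1 ± 6.61 CPM in ROS+++, ROS++ and ROS+ (SD, n = 4, 5 and 5). ROS+++ exceeded ROS+ by 1.87 ± 0.37 (SE, adjusted p = 0.000293, limma), a ratio of 3.60 in mean CPM. ROS++ exceeded ROS+ by 1.82 ± 0.35 (adjusted p = 0.000604, limma), a ratio of 3.47. The difference of ROS+++ minus ROS++ was 0.050 with an interval of -0.72 to 0.82 (95%, adjusted p = 0.927, limma), which leaves room for a difference in either direction. Foxo1 overlaps the antisense gene Gm20402, which was not analysed here, and reads of the 2 strands cannot be told apart.

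Foxo3, the FOXO factor most often tied to neural stem cell maintenance, lies at chr10:42181841-42276755. It had 105, 120.3, 98.4 and 114 CPM in ROS+++ libraries, 79.3, 82.7, 114, 89.7 and 118 CPM in ROS++ libraries, and 121, 162, 165, 148 and 175 CPM in ROS+ libraries. Every ROS+ library lay above every other library, by a narrow margin between ROS+ replicate 1 and ROS+++ replicate 2. The class means were 109 ± 9.54 CPM in ROS+++, against 96.8 ± 18.1 in ROS++ and 154 ± 20.9 in ROS+ (SD, n = 4, 5 and 5). Foxo3 was lower in ROS++ than in ROS+, at -0.68 ± 0.14 (SE, adjusted p = 0.00145, limma), and this call held in all 25 alternatives run. Between ROS+++ and ROS+ the difference was -0.48 ± 0.15 (adjusted p = 0.0102, limma), close to the median difference of all genes of -0.44. That call was lost under the 3 other scalings between libraries, where the difference was -0.11 with TMM factors (adjusted p = 0.556, limma), -0.046 with relative log expression factors (adjusted p = 0.816) and -0.19 with upper-quartile factors (adjusted p = 0.276). ROS+++ minus ROS++ gave 0.19 (interval -0.13 to 0.51, adjusted p = 0.334, limma), and it was called higher under the same 3 scalings, at 0.52, 0.60 and 0.47.

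Foxo4, at chrX:101254528-101260873, and Foxo6, at chr4:120267079-120287349, are the other two FOXO genes of the mouse, and Foxo6 is known mainly from neurons. Foxo4 averaged 2.68 ± 1.17 CPM in ROS+++, against 3.68 ± 1.02 in ROS++ and 3.25 ± 1.42 in ROS+, and the 3 classes overlapped. Its differences had intervals of -0.94 to 0.53 in ROS+++ minus ROS+, -0.53 to 0.86 in ROS++ minus ROS+ and -1.10 to 0.37 in ROS+++ minus ROS++, and none was called. Foxo6 rested on few reads and passed the filter through its ROS+ libraries alone, so its p-values below are no evidence of their own. It had 4, 5, 0 and 4 reads in ROS+++ libraries, 6, 0, 43, 15 and 2 reads in ROS++ libraries, and 34 to 82 reads in ROS+ libraries. In CPM these were 0.191, 0.245, 0 and 0.315 in ROS+++, 0.314, 0, 1.83, 0.767 and 0.109 in ROS++, and 1.42, 2.06, 1.96, 3.50 and 1.60 in ROS+. All ROS+++ libraries lay below all ROS+ libraries, while ROS++ replicate 3 reached into the ROS+ range. The difference was -1.36 ± 0.34 in ROS+++ minus ROS+ (SE, adjusted p = 0.00218, limma) and -1.03 ± 0.32 in ROS++ minus ROS+ (adjusted p = 0.0207). At so low a level the size depends on the scale, and ROS+++ minus ROS+ was -2.43 with a pseudocount of 0.25 CPM, -3.45 on the deposited log2 values and -3.82 with limma-voom. The matching values of ROS++ minus ROS+ were -1.82, -2.61 and -2.77, and the ratios of mean CPM to ROS+ were 0.0891 for ROS+++ and 0.287 for ROS++. The ROS++ call was lost on the deposited log2 values (adjusted p = 0.0513) and without ROS++ replicate 2 (adjusted p = 0.0549) or ROS+ replicate 4 (adjusted p = 0.0596). The markers of neuronal commitment moved the same way between the classes, 10 of 10 lower in ROS+++ and 9 of 10 lower in ROS++ than in ROS+, and their part in the Foxo6 levels was not tested.

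Per kilobase of annotated exon, Foxo3 was the most abundant FOXO transcript in all 14 libraries, and the Foxo1 share of the family differed between the classes. Foxo3 had 14.5 ± 1.26, 12.8 ± 2.39 and 20.4 ± 2.77 CPM per kb in ROS+++, ROS++ and ROS+, and Foxo1 had 4.61 ± 1.43, 4.44 ± 1.29 and 1.28 ± 0.763 CPM per kb (SD, n = 4, 5 and 5). Foxo1 made up 22.8 ± 5.34% of the summed level per kb of the 4 FOXO genes in ROS+++ and 24.2 ± 6.35% in ROS++, against 5.41 ± 2.90% in ROS+. The level of Foxo1 per level of Foxo3, which no scaling between libraries can move, was 0.209 to 0.429 in ROS+++, against 0.158 to 0.431 in ROS++ and 0.0293 to 0.106 in ROS+. No ROS+++ or ROS++ library overlapped with a ROS+ library in this ratio. The summed FOXO level was 19.9 ± 2.46 CPM per kb in ROS+++, against 18.5 ± 2.95 in ROS++ and 23.4 ± 3.21 in ROS+, and the classes overlapped. Foxo4 and Foxo6 were the least abundant, with 0.769 and 0.0718 CPM per kb in ROS+++, 1.06 and 0.231 CPM per kb in ROS++, and 0.934 and 0.806 CPM per kb in ROS+. Exon lengths come from an annotation that may differ from the one the authors used, and priming at the poly-A tail can favour the 3' end, so levels of different genes compare only roughly.

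**Figure D3:**
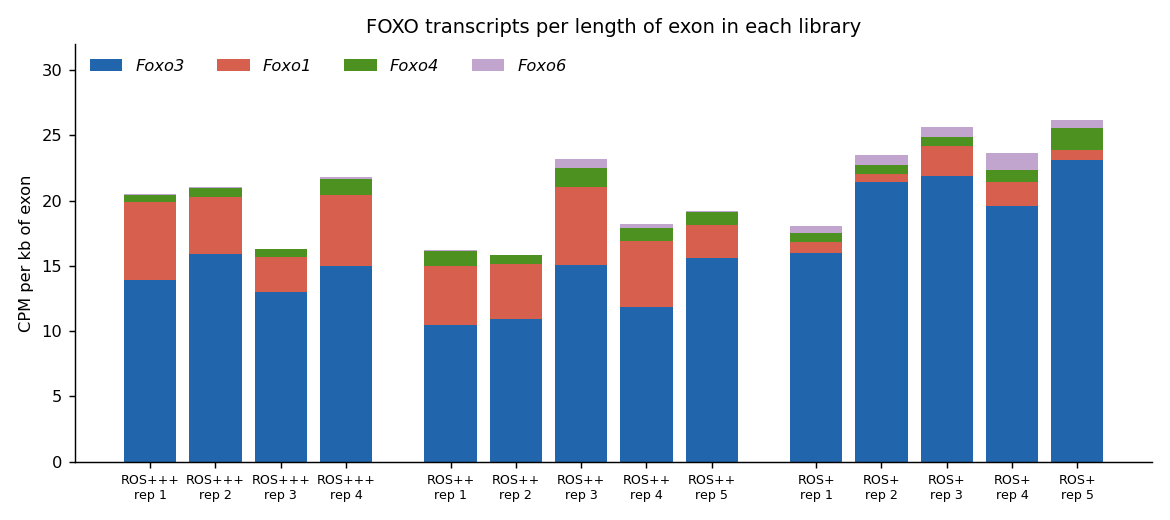
Stacked bars of the 4 FOXO transcripts in CPM per kb of exon (vertical axis, from 0) in each library, with ROS+++ on the left, ROS++ in the middle and ROS+ on the right. Foxo3 is the tallest segment in every bar. The Foxo1 segment averages 4.61 and 4.44 CPM per kb in ROS+++ and ROS++ and 1.28 CPM per kb in ROS+.

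Of the 8 genes, Txnip had the largest difference in ROS+++ minus ROS+ on the log2(CPM + 1) scale. In ROS++ minus ROS+, Txnip (1.83 ± 0.24, SE) and Foxo1 (1.82 ± 0.35) were about equal. The Txnip protein binds and inhibits thioredoxin, a small protein that reduces oxidised proteins, and it also limits glucose uptake. The gene lies at chr3:96557957-96561883, and the 250 bases before its start (chr3:96557707-96557956, plus strand, RefSeq, GRCm38.p6) are shown because they hold letters that match both a forkhead motif and the paired motif of its glucose response. The first run in capitals is GTAAACA, the core motif of FOXO factors, and the second matches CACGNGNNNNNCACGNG, the form of the carbohydrate response element.
Txnip: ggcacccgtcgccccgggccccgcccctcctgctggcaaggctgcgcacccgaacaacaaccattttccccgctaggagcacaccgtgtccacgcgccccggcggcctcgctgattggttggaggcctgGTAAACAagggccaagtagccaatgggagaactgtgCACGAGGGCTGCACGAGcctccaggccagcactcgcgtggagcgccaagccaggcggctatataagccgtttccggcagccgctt
The first match lies at chr3:96557836-96557842 and the second at chr3:96557872-96557888, both outside annotated exons.

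Searched on both strands of the 32851 RefSeq windows of 300 bases, from 250 before to 50 after each start, GTAAACA occurred in 3.65% and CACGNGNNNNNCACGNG in 0.0487%, which is 16 windows. Of 2 further motifs, the FOXO variant CAAAACA occurred in 6.28% and the E box CACGTG in 7.15%. The motifs share no letters in the Txnip window, and they were chosen with the sequences in view. The windows cover 7 of the 9 genes, Foxo4 and Foxo6 not being in the table. Sesn1 has GTAAACA on its minus strand at chr10:41810596-41810602 and Ccng2 has CAAAACA at chr5:93267557-93267563, both inside annotated exons. These sites are shown on the plus strand with 10 bases on each side, and capitals mark the motif, reversed and complemented for Sesn1.
Sesn1: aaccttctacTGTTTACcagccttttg
Ccng2: gtcgcagactCAAAACAaaaacaaggg
None of the 4 motifs was in the windows of Foxo1, Foxo3, Sesn2 and Sesn3 or in the second window of Sesn1. A match describes letters and not a bound site.

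Txnip had 306, 385, 398 and 397 CPM in ROS+++ libraries, 252, 219.6, 284, 366 and 134 CPM in ROS++ libraries, and 82.4, 97.4, 64.5, 60.0 and 40.7 CPM in ROS+ libraries. All ROS+++ and ROS++ libraries lay above all ROS+ libraries, and ROS++ replicate 4 lay within the ROS+++ range. The means were 371 ± 44.1 CPM in ROS+++, against 251 ± 85.2 in ROS++ and 69.0 ± 21.7 in ROS+ (SD, n = 4, 5 and 5). ROS+++ exceeded ROS+ by 2.46 ± 0.25 (SE, adjusted p = 1.92e-07, limma), a ratio of 5.38 in mean CPM, and ROS++ exceeded ROS+ by 1.83 ± 0.24 (adjusted p = 1.1e-05), a ratio of 3.64. Both calls held in all 25 alternatives run. ROS+++ minus ROS++ was 0.63 ± 0.25 (adjusted p = 0.0541, limma) and was not called, with an unadjusted interval of 0.10 to 1.15. It passed in 9 of the 25 alternatives, among them the 3 other scalings, where it was 0.91 to 1.04, and the range of its adjusted p was 0.004 to 0.14. With a block for sets of neighbouring library numbers it was 0.68 (adjusted p = 0.0289, limma). The antisense gene Gm15441 overlaps Txnip exons. It had 0.957 ± 0.607 CPM in ROS+++, against 1.64 ± 0.892 in ROS++ and 0.638 ± 0.415 in ROS+, and reads of the 2 strands cannot be told apart.

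Sesn1 and Sesn3 code for sestrins, stress-induced proteins that restrain the growth kinase complex mTORC1 by binding the GATOR2 complex. Sesn1, at chr10:41809935-41908424, had 78.6, 80.6, 87.7 and 77.8 CPM in ROS+++ libraries, 76.3, 42.8, 52.7, 50.6 and 34.8 CPM in ROS++ libraries, and 68.0, 63.3, 75.2, 69.0 and 73.3 CPM in ROS+ libraries. Every ROS+++ library was above every library of both other classes, and ROS++ replicate 1 stood above the other 4 ROS++ libraries, which were below all ROS+ libraries. The class means were 81.2 ± 4.51 CPM in ROS+++, against 51.4 ± 15.6 in ROS++ and 69.8 ± 4.68 in ROS+ (SD, n = 4, 5 and 5). Sesn1 was higher in ROS+++ than in ROS++ by 0.69 ± 0.18 (SE, adjusted p = 0.00607, limma), and this call held in all 25 alternatives. Between ROS+++ and ROS+ the difference was 0.22 ± 0.18 (interval -0.17 to 0.60, adjusted p = 0.324) and was not called, although the libraries did not overlap. Under the 3 other scalings it was called higher, at 0.59, 0.65 and 0.51. Between ROS++ and ROS+, Sesn1 was called lower at -0.48 ± 0.17 (adjusted p = 0.046, limma), but 18 of the 25 alternatives lost the call, with adjusted p between 0.0051 and 0.11.

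Sesn3, at chr9:14275067-14333101, was a low transcript with a wide spread. It had 10.2, 5.50, 11.1 and 4.72 CPM in ROS+++ libraries, 8.64, 9.87, 9.34, 18.6 and 0.873 CPM in ROS++ libraries, and 2.41, 1.78, 3.17, 10.1 and 5.96 CPM in ROS+ libraries. The classes overlapped and no difference was called. The intervals were -0.45 to 1.97 in ROS+++ minus ROS+, -0.40 to 1.88 in ROS++ minus ROS+ and -1.19 to 1.23 in ROS+++ minus ROS++. Without ROS++ replicate 5, ROS++ minus ROS+ was 1.28 (adjusted p = 0.031, limma). Per kb of exon, Sesn3 had 0.516, 0.620 and 0.307 CPM in ROS+++, ROS++ and ROS+, and Sesn1 had 20.4, 12.9 and 17.5 CPM.

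Ccng2, at chr5:93267257-93276231, codes for an unconventional cyclin associated with cell cycle arrest. It had 51.9, 39.0, 17.4 and 37.2 CPM in ROS+++ libraries, 34.4, 39.5, 31.7, 43.9 and 16.97 CPM in ROS++ libraries, and 42.3, 36.8, 48.9, 42.5 and 45.1 CPM in ROS+ libraries. A single library in each of ROS+++ and ROS++ stood well below the rest of its class, and the ranges overlapped. No difference was called, with intervals of -0.95 to 0.29 in ROS+++ minus ROS+, -1.003 to 0.16 in ROS++ minus ROS+ and -0.52 to 0.71 in ROS+++ minus ROS++.

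In the comparisons with ROS+++, the choice of scaling between libraries moved these genes in the direction it moved all genes, Foxo6 by less. With library totals, 32.5% of the calls in ROS+++ minus ROS+ were higher, against 47.9% with TMM, 50.6% with relative log expression and 43.9% with upper-quartile factors. For ROS+++ minus ROS++ these shares were 25.3% with totals and 46.4%, 52.2% and 42.4% with the others. The median of all genes shifted by 0.268 to 0.397 in ROS+++ minus ROS+, by 0.248 to 0.366 in ROS+++ minus ROS++ and by at most 0.0414 in ROS++ minus ROS+. Foxo1 and Txnip stayed higher than in ROS+ under every scaling, with Txnip in ROS+++ minus ROS+ at 2.76 to 2.90 and Foxo1 at 2.15 to 2.29 under the other 3. Foxo6 stayed lower in ROS+++ minus ROS+, at -1.24 with TMM and -1.225 with relative log expression factors, against -1.36 with totals. It was tested through its ROS+ libraries alone, so its staying lower is no evidence of its own.

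**Figure D4:**
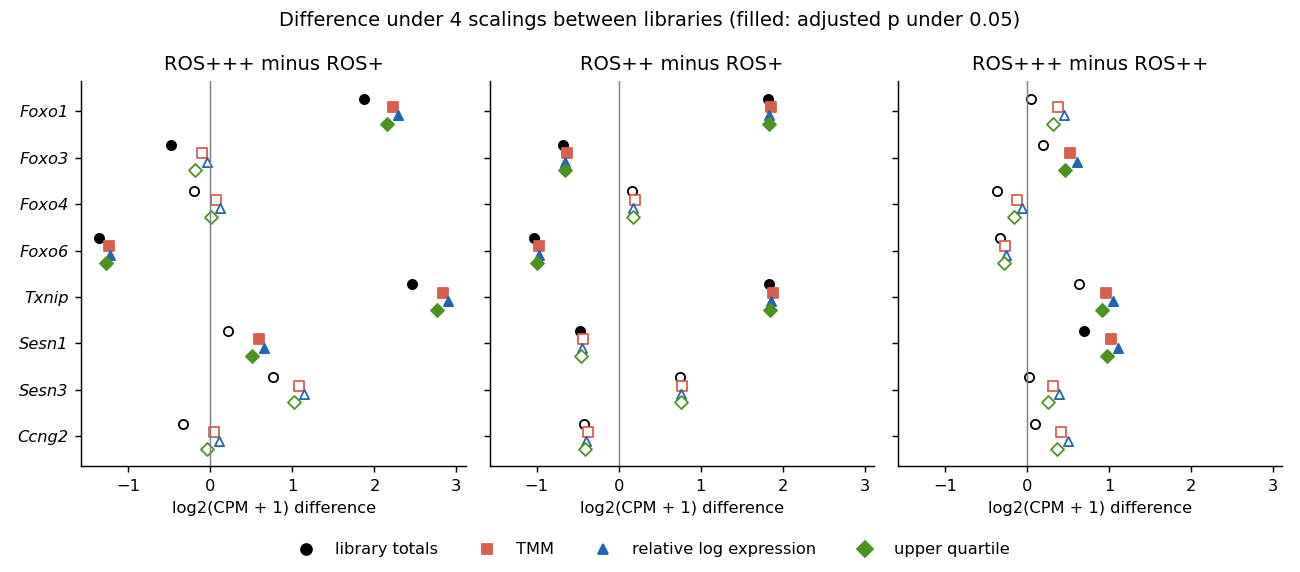
Difference in log2(CPM + 1) (horizontal axes) for the 8 genes under library totals and 3 other scalings, with filled symbols for an adjusted p under 0.05. In ROS++ minus ROS+ the 4 symbols of a gene nearly coincide. In both panels with ROS+++ the 3 other scalings lie to the right of library totals, and Foxo3 in ROS+++ minus ROS+ is filled only for library totals.

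The deviations of single libraries ran through several of these genes. ROS++ replicate 5 was the lowest of its class for Foxo1, Txnip, Sesn1, Sesn3 and Ccng2 and the highest for Foxo3. It also had the lowest summed mural markers of its class (7725 CPM), the lowest summed radial glia markers (5587 CPM), the highest summed markers of neuronal commitment (2342 CPM) and the fewest reads (18325361). Whether these values have a part in its levels was not tested. Without it, ROS++ minus ROS+ was 2.01 for Foxo1, -0.75 for Foxo3, 2.04 for Txnip and -0.92 for Foxo6, all still called, while Sesn1 at -0.35 was not (adjusted p = 0.108, limma). Sample titles carry library numbers along which the classes recur in order, so libraries were also compared within 5 sets of neighbouring numbers, 4 of which hold a ROS+++ library. Foxo1 and Txnip were higher, and Foxo3 and Foxo6 lower, in ROS+++ than in ROS+ in 4 of 4 sets and in ROS++ than in ROS+ in 5 of 5 sets. These comparisons used library totals, and all genes were not counted in this way. Foxo3 differed by -0.62 to -0.46 in ROS+++ minus ROS+, near the median of all genes of -0.44, and its call there was lost under the 3 other scalings. Foxo6 was tested through its ROS+ libraries alone, so its directions are no evidence of their own. Sesn1 and Txnip were higher in ROS+++ than in ROS++ in 4 of 4 sets, Txnip by 0.12 to 1.56.

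Other described FOXO targets split in direction, and the differences of single genes here and in the groups that follow are against ROS+. Of 26 listed, 22 were tested, and in ROS+++ minus ROS+ 10 were called higher and 6 lower, against 19.2% and 40.0% of all genes, with a median of 0.34 against -0.44 for all genes. With TMM, relative log expression and upper-quartile factors, 12, 13 and 12 were higher and 1, 1 and 2 lower. Of all 15102 tested genes, 3819, 4009 and 3556 were then called higher and 4147, 3912 and 4551 lower. The list medians were 0.65, 0.71 and 0.58, against -0.095, -0.040 and -0.17 for all genes. Between ROS++ and ROS+, 9 were higher and 4 lower, against 16.4% and 13.2% of all genes, with a median of 0.38 against -0.033. Selenop, a selenium carrier protein, had 527 ± 203 CPM in ROS+++, against 648 ± 152 in ROS++ and 24.0 ± 14.2 in ROS+, a difference of 4.53 ± 0.40 in ROS+++ and 4.88 ± 0.37 in ROS++ (SE, adjusted p = 2.16e-07 and 2.31e-07, limma). Klf2, a transcription factor prominent in endothelium, was higher by 3.05 ± 0.31 in ROS+++ and 2.10 ± 0.29 in ROS++. Of 8 endothelial markers, which summed to 1216 to 1447 CPM in ROS+++, against 183.7 to 558.9 in ROS++ and 56.41 to 142.3 in ROS+, 4 were called higher in ROS+++ and 2 in ROS++. Their sum in ROS+++ lay mostly in Esam (940 ± 153 CPM) and Emcn (261 ± 45.4 CPM), and Pecam1, Cdh5, Cldn5 and Kdr were not called in either. Pdk4, which restrains pyruvate oxidation, was higher in ROS+++ by 2.76 ± 0.65, and Cited2, a transcriptional coregulator, by 2.36 ± 0.36. Like the mural and the microglia and macrophage markers, all 4 genes had higher means in ROS+++ and in ROS++ than in ROS+, and the part of those cells was not tested.

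Upstream, 4 of the 20 insulin, PI3K and AKT genes were called higher and 6 lower between ROS+++ and ROS+, and 2 higher and 2 lower between ROS++ and ROS+. Of all genes, 59.2% were called in the first comparison (19.2% higher and 40.0% lower) and 29.6% in the second (16.4% and 13.2%). The median between ROS+++ and ROS+ was -0.36, against -0.44 for all genes. With TMM, relative log expression and upper-quartile factors it was -0.000713, 0.059 and -0.080, against -0.095, -0.040 and -0.17 for all genes. These factors gave 4 genes higher each and 4, 3 and 4 lower, and the counts of all genes moved as given for the FOXO targets. Inpp4b, a phosphatase of phosphoinositides, had 319 ± 33.4 CPM in ROS+++, against 70.3 ± 14.1 in ROS++ and 16.4 ± 5.73 in ROS+. It was higher by 4.26 ± 0.22 in ROS+++ and by 2.08 ± 0.21 in ROS++ (SE, adjusted p = 6.12e-11 and 7.52e-07, limma). The PI3K catalytic subunit Pik3cd was higher in ROS+++ by 3.22 ± 0.36, and the regulatory subunit Pik3r3 was lower, at -1.99 ± 0.37. The insulin receptor substrate Irs1 was lower in both, at -1.55 ± 0.27 in ROS+++ and -1.27 ± 0.26 in ROS++.

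Of 19 tested enzymes and partners that modify FOXO proteins, 4 were called higher and 7 lower between ROS+++ and ROS+, and 2 higher and 3 lower between ROS++ and ROS+. Both directions together, the shares of all genes called were 59.2% and 29.6%. Their median difference was -0.30 between ROS+++ and ROS+, against -0.44 for all genes. With TMM, relative log expression and upper-quartile factors it was 0.070, 0.13 and -0.0105, against -0.095, -0.040 and -0.17 for all genes. These factors gave 6, 7 and 6 genes higher and 6, 5 and 6 lower. The counts of all genes then moved as given for the FOXO targets. Lower in ROS+++ were Skp2, part of a ubiquitin ligase, at -3.07 ± 0.36, the deacetylase Sirt2 at -2.55 ± 0.22 and the stress kinase Mapk8 (JNK1) at -2.16 ± 0.18 (SE). Mapk8 was also lower in ROS++ than in ROS+, at -0.92 ± 0.17. The acetyltransferase Kat2b was higher by 1.05 ± 0.27 in ROS+++ and 0.75 ± 0.25 in ROS++ (adjusted p = 0.00256 and 0.0302, limma). Sirt2 is abundant in oligodendrocytes. Of 8 myelinating oligodendrocyte markers, which summed to 487.4 to 652.5 CPM in ROS+++, against 1976 to 10368 in ROS++ and 1965 to 5459 in ROS+, 4 were called lower and 1, Opalin, higher in ROS+++ than in ROS+. Of 6 oligodendrocyte precursor markers, which summed to 481 to 724.9 CPM in ROS+++, against 1941 to 3552 in ROS++ and 1869 to 2673 in ROS+, 5 were lower and 1, Cspg4, was higher. The part of those cells was not tested.

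Among sestrin and mTORC1 genes, 4 of 23 genes were higher and 8 lower in ROS+++ minus ROS+, and 5 were higher and 4 lower in ROS++ minus ROS+, against 59.2% and 29.6% of all genes called. The other scalings gave 7, 9 and 7 higher and 7 lower each in ROS+++ minus ROS+, where the counts of all genes moved as given for the FOXO targets. The median was -0.32, against -0.44 for all genes. With TMM, relative log expression and upper-quartile factors it was 0.050, 0.11 and -0.031, against -0.095, -0.040 and -0.17 for all genes. Castor1, an arginine sensor of mTORC1, and its relative Castor2 went opposite ways. Castor1 was higher in ROS+++ by 3.58 ± 0.58 (39.1 ± 9.85 CPM in ROS+++, against 2.73 ± 2.34 in ROS+), and Castor2 was lower, at -2.79 ± 0.26 (18.4 ± 9.46 CPM in ROS+++, against 123 ± 14.6 in ROS+). Nfe2l2, the antioxidant regulator NRF2, was higher by 2.76 ± 0.23 in ROS+++ and 1.71 ± 0.22 in ROS++. Sqstm1, the autophagy receptor p62, was higher by 1.55 ± 0.17 in ROS+++ and 1.32 ± 0.16 in ROS++. Wdr59, a GATOR2 subunit, was lower in ROS+++, at -2.17 ± 0.46.

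Among thioredoxin and TXNIP genes, 5 of 14 tested genes were higher and 3 lower in ROS+++ minus ROS+, and 3 were higher and 1 lower in ROS++ minus ROS+, against 59.2% and 29.6% of all genes called. The median between ROS+++ and ROS+ was -0.18, against -0.44 for all genes. Under the other scalings it was 0.16, 0.22 and 0.083, against -0.095, -0.040 and -0.17 for all genes. Nlrp3, the inflammasome sensor that Txnip is known to bind, had 10.3 ± 12.2 CPM in ROS+++, against 10.3 ± 6.81 in ROS++ and 0.0443 ± 0.0619 in ROS+. It moved with the microglia and macrophage markers, whose part was not tested. Map3k5 (ASK1), a stress kinase held inactive by thioredoxin, was higher in ROS+++ by 2.63 ± 0.34. Lower in ROS+++ were Mlxip (MondoA), a glucose-sensing activator of Txnip, at -1.61 ± 0.42 and thioredoxin reductase Txnrd1 at -1.30 ± 0.22 (SE, adjusted p = 0.0032 and 8.28e-05, limma).

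Most cell cycle genes had their highest mean in ROS++. The cyclin G and cell cycle list holds 15 genes. In ROS+++ minus ROS+, none was higher and 7 were lower, against 19.2% and 40.0% of all genes. In ROS++ minus ROS+, 7 were higher and none lower, against 16.4% and 13.2% of all genes. In ROS+++ minus ROS++, none was higher and 11 were lower, against 9.89% and 29.2% of all genes. With the other scalings 1 gene was called higher in ROS+++ minus ROS+ and 1 or 2 in ROS+++ minus ROS++. The medians were -0.92, 0.88 and -1.97, against -0.44, -0.033 and -0.34 for all genes. Mcm2, part of the replication helicase, had 5.67 ± 4.26 CPM in ROS+++, against 56.5 ± 13.7 in ROS++ and 22.1 ± 6.81 in ROS+. Its difference was -2.03 ± 0.41 in ROS+++ minus ROS+ (SE, adjusted p = 0.000408, limma). The mitotic cyclin Ccnb1 was higher in ROS++ than in ROS+ by 2.29 ± 0.71, and the helicase subunit Mcm3 by 1.41 ± 0.24. Ccne1, an S-phase cyclin, was lower in ROS+++, at -1.75 ± 0.49, and Ccnd1 was lower, at -1.58 ± 0.49, a call lost with relative log expression factors (adjusted p = 0.0532). Ccng1, the nearest relative of Ccng2, differed by 0.030 in ROS+++ minus ROS+ and was not called (interval -0.47 to 0.53).

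**Figure D5:**
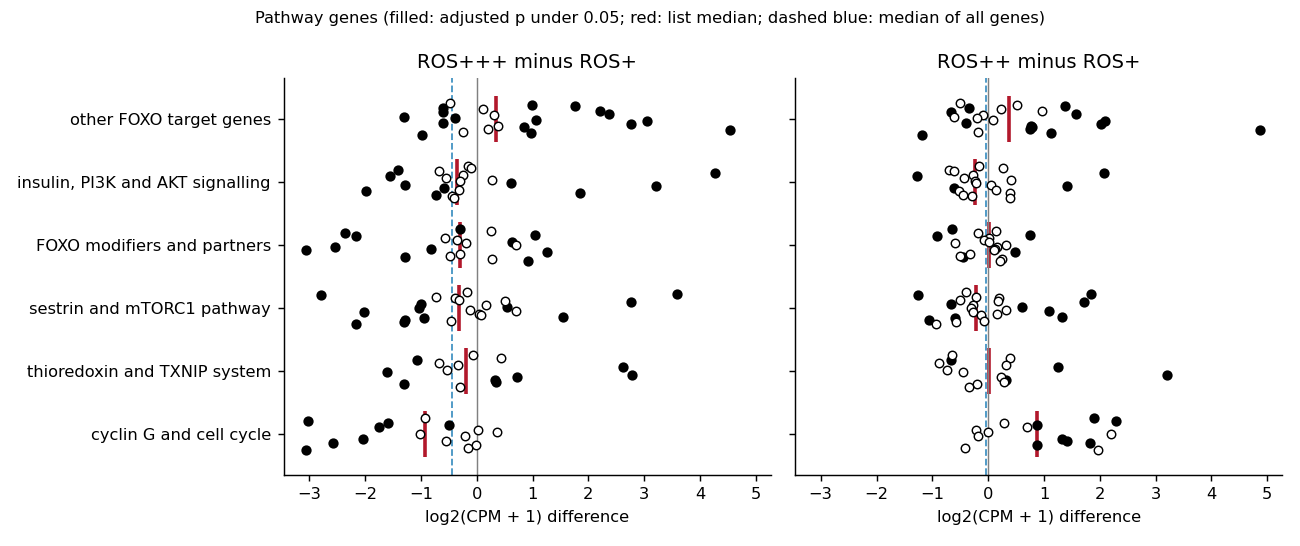
Difference in log2(CPM + 1) (horizontal axes) of every tested gene of the 6 pathway lists in ROS+++ minus ROS+ (left) and ROS++ minus ROS+ (right). Filled points have an adjusted p under 0.05, red bars are list medians and the dashed line is the median of all genes. The cell cycle list has its median at -0.92 on the left and 0.88 on the right, and the FOXO target list at 0.34 and 0.38.

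The genes with the most similar profile were taken as those with the smallest root mean square difference in centred log2(CPM + 1) over the 14 libraries, among 10222 genes with a mean of at least 10 CPM. For Txnip these were Clybl (0.286), Cited2 (0.304) and Ppfibp2 (0.325), against its own SD of 1.11. Foxo1, with an SD of 1.03, came closest to Glud1 (0.432), Zfp36l2 (0.452) and Lef1 (0.467). Foxo3, with an SD of 0.348, came closest to Kdm2a (0.115), Prpf38b (0.152) and Atf7ip (0.161). Sesn1 came closest to Ing3 (0.151), Klf13 (0.165) and Irf2bp2 (0.178), and Ccng2 to Phc1 (0.208), Tnrc6a (0.236) and Rlim (0.28). For Foxo6 they were Inpp5e (0.312), Git1 (0.324) and Rbm4b (0.334), for Foxo4 Txnl1 (0.224), Dohh (0.263) and Map4 (0.27), and for Sesn3 Ltbp4 (0.476), Stt3b (0.506) and Nmnat3 (0.532). None of Foxo1, Foxo3, Txnip, Sesn1 and Ccng2 was among the nearest genes of another, while Foxo4, Foxo6 and Sesn3 lay below the minimum level for candidates. Cited2 was the only gene of the pathway lists among them.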

How the data were processed

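RNA of GFP-positive dentate gyrus cells was converted to cDNA by poly-dT priming with template switching, then amplified (12 cycles), per the labels' protocols. No strand or molecular identifiers were kept. The authors deposited log2 values of 15119 genes in 14 columns. STAR, edgeR and mm10 appear in the submitters' processing notes. Counting tool, annotation and versions: not given in the sources used here.

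All libraries share a lowest log2 value of -4.36. After its removal every value was a whole multiple of 1 read within 0.001 reads, and CPM are recovered reads per library total. Of the genes, 15060 have a symbol in GENCODE M21, which also gave coordinates and exon lengths. Counts differed beyond sampling noise in all 26 replicate pairs (chi-square over degrees of freedom 33.8 to 161), so that none is the same library sequenced again. This cannot tell separate animals from separate preparations of the same RNA.

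The plan foresaw counts or normalized values, and because the unit is log2, limma-trend 3.58.1 (statmod 1.5.0, R 4.3.3) with robust moderation was fitted to log2(CPM + 1), after checks on simulated data. The filter of 1 CPM or more in 4 or more libraries left 15102 genes, 17 fewer than listed. One fit held all libraries, with 11 residual degrees of freedom, with Benjamini-Hochberg adjustment over all tested genes. Alternatives were 3 other scalings, pseudocount 0.25 CPM, the deposited values, no filter, a filter at 5 CPM, limma-voom, no trend or robust moderation, only the compared classes, a block for library sets, and each library left out. The 9 genes, the gene lists and the rules were chosen with earlier results of these data known. Named genes were these 9, up to 4 per list with the largest called, non-overlapping difference in ROS+++ minus ROS+ and up to 2 in ROS++ minus ROS+, and 3 nearest profiles for each of the 8 measured. Some genes this rule selects are not reported here. Ccng1 was named after its value was seen. Replicate numbers follow accession order. Motif searches and figures used Python 3.11.15, numpy 2.4.6, pandas 2.3.3 and matplotlib 3.10.9.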

Additional observations from a re-analysis of the deposited data

Results flagged for a closer look

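Among 24 groups of 4 or 5 libraries, 8 genes in 3 classes, 2 held a library far from the others, and chance alone gives about 1 in 20. Txnip in ROS+++ replicate 1 had 306 CPM, below a next value of 385 CPM, and this gap was 0.861 of the range of the class, past Dixon's 95% critical value for 4 libraries. Without this library ROS+++ minus ROS++ was 0.72 for Txnip and was called (adjusted p = 0.0484, limma). Foxo4 in ROS+ replicate 5 had 5.72 CPM, above a next value of 3.20 CPM, a gap of 0.762 of the range, past the value for 5 libraries.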

How the results depend on the processing

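For ROS+++ minus ROS++, 1 gene of the 8 was called, against 3 with each of the TMM, relative log expression and upper-quartile factors, 2 with limma-voom, 2 with the library set block, and 1 to 2 with a library left out. In ROS++ minus ROS+, 3 to 5 were called with a library left out. The counts over all genes stayed within 1.5 times in every alternative. Differences that were not called changed sign in ROS+++ minus ROS+ for Foxo4 (0.073, 0.12 and 0.012 with TMM, relative log expression and upper-quartile factors) and Ccng2 (0.039 and 0.0999 with the first 2). In ROS+++ minus ROS++ they did so for Foxo1 (-0.001035 with limma-voom) and Sesn3 (-0.0225 with the set block), and with a library left out the values ran from -0.14 to 0.28 for Foxo1, -0.52 to 0.33 for Sesn3 and -0.12 to 0.40 for Ccng2. The cause was not tested. The labels give no replicate numbers that pair libraries, so the only block fitted was that of the library sets, under which Txnip was the added call (0.68, adjusted p = 0.0289, limma). The low read counts of Foxo6, Foxo4 and Sesn3 limit what could be detected, and no Foxo6 value was had with the filter at 5 CPM.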
